A study of Mus musculus with 6 samples.

Results

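The 9 genes Nox4, Cyba, Cybb, Sod1, Sod2, Sod3, Cat, Gpx1 and Gpx3, which encode enzymes of superoxide production and removal, were followed in cultured mouse aortic smooth muscle cells given TWEAK or vehicle. They were found by gene symbol, with no threshold on a measured value, and all 9 were present among the 14927 genes of the deposited table. The cells came from aortas of wild-type C57BL/6 mice and were used at passages 3 to 7. After 24 h in medium with 0.5% serum, 1 group received recombinant TWEAK at 100 ng/mL and the other received vehicle, both for 24 h in 0.5% serum. TWEAK, a member of the TNF family of cytokines, acts through the receptor Fn14. There were 3 TWEAK and 3 vehicle libraries of total RNA, numbered 1 to 3 in each group, and the table's headers give these numbers as experiments. The labels do not say whether the experiments used cells of different animals. The p-values measure the spread among these libraries or, where the experiment is a block, among the differences within experiments. Either spread may be technical.

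NADPH oxidases are membrane enzymes that pass electrons from NADPH to oxygen. Nox4 and Cybb encode catalytic units, and Cyba encodes p22phox, the partner that both need. Cybb (NOX2) is the oxidase of phagocytes and makes superoxide, whereas Nox4 is a main oxidase of vascular smooth muscle and releases mostly hydrogen peroxide. Superoxide dismutases turn superoxide into hydrogen peroxide in the cytosol (Sod1), in mitochondria (Sod2) and outside the cell (Sod3). Catalase, encoded by Cat, and the glutathione peroxidases, here the cellular Gpx1 and the secreted Gpx3, then remove the peroxide.

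The RefSeq promoter table of build GRCm38.p6 held 8 of the 9 genes, all but Sod3. The 250 bases before the annotated start are printed for 3 genes: the oxidase genes Nox4 and Cybb, whose levels differed most among the experiments below, and Sod2, a known target of the NF-kB pathway through which TWEAK signals. They lie at chr7:87246399-87246648 on the plus strand (Nox4), chrX:9469325-9469574 on the minus strand (Cybb) and chr17:13007589-13007838 on the plus strand (Sod2), and each is written 5′ to 3′ along its gene. Capitals mark the GC box GGGCGG, the CCAAT box CCAAT and the ETS-type motif GAGGAA, each searched on both strands.
Nox4: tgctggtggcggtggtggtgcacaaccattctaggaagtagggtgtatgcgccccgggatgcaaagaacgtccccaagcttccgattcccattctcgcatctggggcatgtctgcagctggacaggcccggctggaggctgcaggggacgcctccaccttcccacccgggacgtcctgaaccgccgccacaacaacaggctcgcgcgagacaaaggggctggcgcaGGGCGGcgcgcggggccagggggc
Cybb: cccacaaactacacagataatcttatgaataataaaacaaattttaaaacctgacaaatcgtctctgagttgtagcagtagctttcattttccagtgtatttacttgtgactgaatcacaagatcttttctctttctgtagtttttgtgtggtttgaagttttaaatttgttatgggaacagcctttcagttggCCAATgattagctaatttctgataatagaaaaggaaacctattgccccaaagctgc
Sod2: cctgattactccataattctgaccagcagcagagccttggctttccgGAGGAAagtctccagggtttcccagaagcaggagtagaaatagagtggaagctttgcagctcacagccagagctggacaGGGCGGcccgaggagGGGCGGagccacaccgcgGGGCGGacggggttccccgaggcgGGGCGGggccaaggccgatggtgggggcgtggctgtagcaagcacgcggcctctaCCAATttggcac
The Sod2 window held 4 GC boxes, which start 124, 109, 91 and 67 bases before the start, with 1 CCAAT box and 1 GAGGAA. Nox4 had 1 GC box, 24 bases before the start, and Cybb had none and 1 CCAAT box, 56 bases before it. Of ETS-type motifs only GAGGAA was searched. Other sequences with ggaa, such as the aaaaggaaac that the Cybb window holds, were not counted. GGGCGG occurred in 32.7% of the 32851 promoter windows of this length, CCAAT in 33.9% and GAGGAA in 23.3%. The NF-kB motif searched, GGG, any 2 bases and then TTTCC, was found in none of the 8 windows and in 1.41% of all windows. Other forms of this motif were not searched, such as the ggggttcccc that the Sod2 window holds. The lack of a match therefore does not show that a window has no NF-kB-type site. GC content was 67.2% for Nox4, 34.0% for Cybb and 63.6% for Sod2, against a median of 52.4% over all windows. These matches describe letters only and say nothing of binding.

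Reads over the listed genes ranged from 62632273 to 82118717 per library, and all 9 genes passed the low-value filter, a mean of at least 1 normalized count. Normalized counts are reads divided by the authors' size factor of each library. Macrophage and endothelial marker transcripts were present in the cultures, and their sums differed more among experiments than between the treatments within one. The sum of 20 measured macrophage markers lay between 5180 and 83651 normalized counts in TWEAK libraries and between 4857 and 87021 in vehicle libraries, highest in experiment 1 in both groups. The 12 endothelial markers summed to between 17028 and 83631 in TWEAK libraries and between 17988 and 98998 in vehicle libraries, highest in experiment 2. The 10 smooth muscle markers summed to between 294627 and 456181 in TWEAK libraries and between 429998 and 577750 in vehicle libraries. No marker was at 0 in any library, but neither was any gene of the deposited table, whose smallest value was 0.87 normalized counts. The absence of zeros therefore says nothing of the markers. Acta2, the smooth muscle actin, had 104920 to 145050 normalized counts in TWEAK libraries and 165752 to 191983 in vehicle libraries. Pecam1, an endothelial adhesion protein, had 1972 to 15874 in TWEAK libraries and 2253 to 20068 in vehicle libraries, so an endothelial marker transcript was present. Which cells held it was not tested. In the test described next, which called 13.7% of all genes, 8 of the 10 smooth muscle markers fell with TWEAK and 1 rose. None of the macrophage or endothelial markers was called, and of 8 adventitial fibroblast markers 2 rose and 2 fell. The part of these lists in the results below was not tested. In bulk RNA, fewer cells of a type and less RNA per cell cannot be told apart.

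Differences between TWEAK and vehicle are given on the scale log2(normalized count + 1), on which the change of low genes is understated, and a call is a Benjamini-Hochberg adjusted p under 0.05 over all genes. Of the 9 genes, 1 rose with TWEAK (Sod3), none fell and 8 did not pass in limma with the experiment as a block. That is 11.1% of the 9, where 13.7% of all genes tested were called, 8.11% higher and 5.55% lower. Without the block limma called none of the 9 and 0.0201% of all genes, none of the 9 had an unadjusted p under 0.05 against 9.91% of all genes, and edgeR and DESeq2 without the block also called none. With the block, 4 of the 9 had an unadjusted p under 0.05, as did 30.3% of all genes. DESeq2 with the block called 1 of the 9 and 18.5% of all genes, and limma with the block and a GC and length correction called 1 of the 9 and 23.8% of all genes, 9.82% lower. The median log2 difference of the 9 was -0.10, against 0.02 over all genes. The groups overlapped for each of the 9, while they did not overlap for 16.0% of all genes. The 95% intervals below are from the blocked fit, and the adjusted p-values of the 9 genes without the block ran from 0.856 to 0.999.

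**Figure D1:**
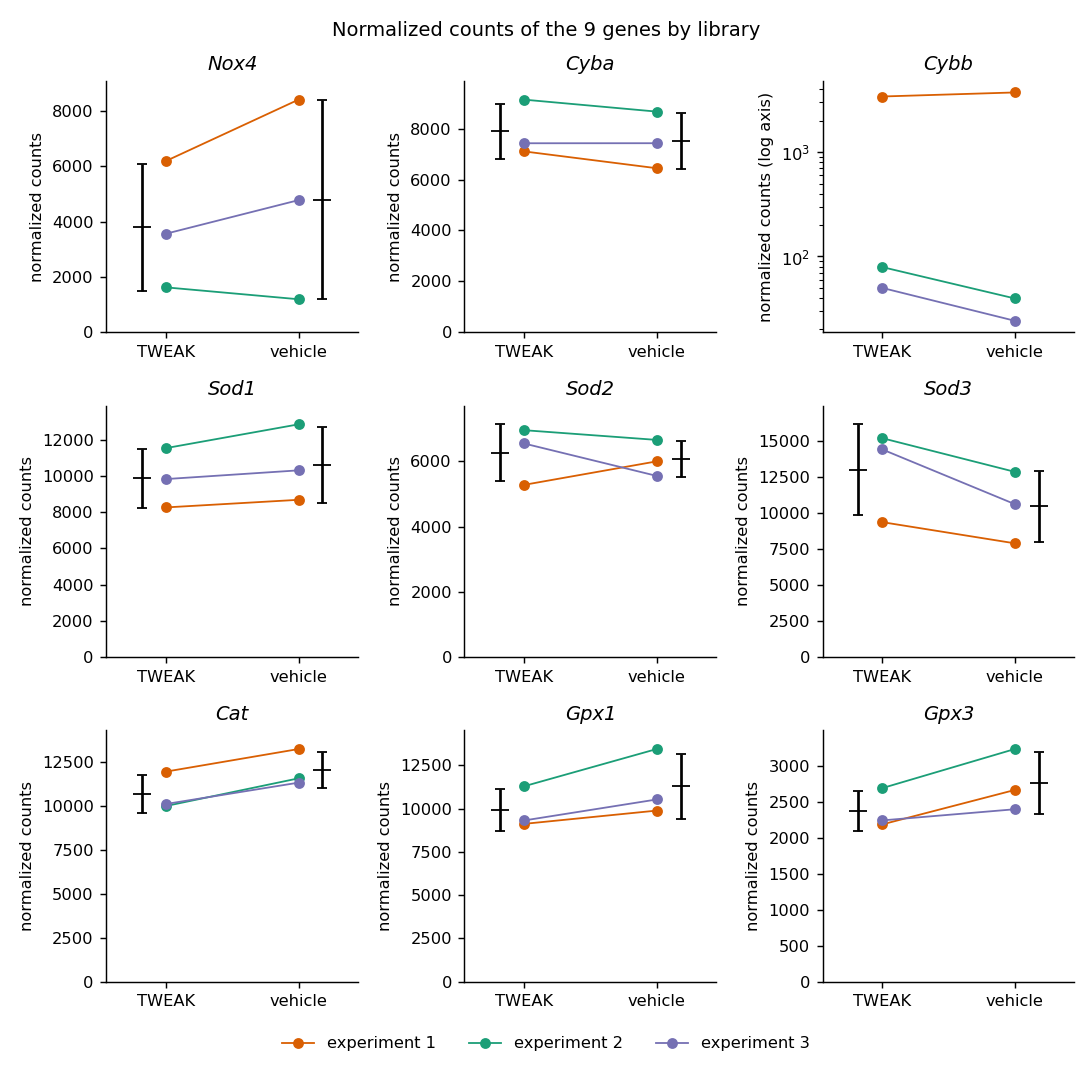
Normalized counts of the 9 genes in each library, on linear axes from 0 except for Cybb, which has a log axis. Points are libraries, lines join the libraries of an experiment, and black marks are group means with SD (n = 3; not drawn for Cybb). For Sod3 all 3 lines run downward to vehicle, while for Nox4 and Cybb the experiments are further apart than the treatments.

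Among the oxidase genes, Nox4 had 6188, 1621 and 3560 normalized counts in TWEAK libraries 1, 2 and 3, against 8406, 1191 and 4773 in vehicle libraries 1, 2 and 3. It was highest in experiment 1 and lowest in experiment 2 under both treatments, and the ranges of the groups overlapped. Its means were 3790 ± 2292 with TWEAK and 4790 ± 3607 with vehicle (SD, n = 3). The log2 difference was -0.44, 0.44 and -0.42 in experiments 1, 2 and 3, so experiment 2 went opposite to the others, a contrast seen in these values and not tested. Over the 3 experiments it was -0.14 (95% interval -0.63 to 0.35, limma adjusted p = 0.656). Without experiment 2, the pair that went the other way, the log2 difference was -0.43 and was called lower (limma adjusted p = 3.15e-05 from 2 pairs). That fit called 3902 of all 14927 genes, against 2039 with all 3 experiments. Without experiment 1 the log2 difference was 0.01 (0.983), and without experiment 3 it was 0.00 (0.999). After correction for GC content and length it was -0.28 (0.0860), and without the block it was -0.33 in edgeR and -0.34 in DESeq2, none of them called. Experiment 2, where Nox4 was lowest, was also the one with the highest endothelial marker sum and the lowest smooth muscle marker sum, and whether they bear on Nox4 was not tested.

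Cyba, which encodes the shared p22phox subunit, had 7104, 9139 and 7425 normalized counts in TWEAK libraries 1, 2 and 3, against 6444, 8668 and 7426 in vehicle libraries 1, 2 and 3. The 3 pairs lay close together. Its log2 difference was 0.07 (95% interval -0.10 to 0.24, limma adjusted p = 0.513), 0.20 after correction for GC content and length (0.0935) and 0.042 with upper quartile scaling (0.784).

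Cybb had 3414, 79.2 and 50.0 normalized counts in TWEAK libraries 1, 2 and 3, against 3733, 39.6 and 24.2 in vehicle libraries 1, 2 and 3. The libraries of experiment 1 were far above the others under both treatments. The low libraries held few reads of the gene: 88 (exact Poisson 95% interval 70.6 to 108) and 45 (32.8 to 60.2) in TWEAK libraries 2 and 3, against 42 (30.3 to 56.8) and 21 (13.0 to 32.1) in vehicle libraries 2 and 3, intervals that cover counting error only. The log2 difference was -0.13, 0.98 and 1.02 in experiments 1, 2 and 3. The mean of these, 0.62, did not pass (95% interval -0.05 to 1.29, limma adjusted p = 0.188), and without experiment 1 it was 1.00 and was not called either. The size depended on the method: with the block it was 0.35 in edgeR (adjusted p = 0.4503) and 0.053 in limma-voom (0.891).

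Of the 20 measured macrophage markers, 17 had the order of experiments seen for Cybb, 1 over 2 over 3, in both groups. Experiment 1 was highest in both groups for 19, the exception being Cd14, the endotoxin co-receptor, with 880, 1000 and 555 normalized counts in TWEAK libraries 1, 2 and 3, against 692, 786 and 281 in vehicle libraries 1, 2 and 3. Ptprc, the leukocyte antigen CD45, named with its values known, had 1801, 26.1 and 27.8 in TWEAK libraries 1, 2 and 3, against 2416, 17.0 and 47.2 in vehicle libraries 1, 2 and 3. The highest library of a marker was between 2.72 and 142 times its lowest (median 30.6), against 154 times for Cybb. Lyz2, the lysozyme of macrophages, had 36137, 5567 and 1743 normalized counts in TWEAK libraries 1, 2 and 3, against 35968, 5831 and 1866 in vehicle libraries 1, 2 and 3. Cd68, a lysosomal protein of macrophages, had 1464, 261 and 140 in TWEAK libraries and 1577, 276 and 97.9 in vehicle libraries, and Csf1r, their growth factor receptor, had 3779, 703 and 601 in TWEAK libraries and 4119, 888 and 524 in vehicle libraries, again in the order of experiments 1, 2 and 3. None of the 20 was called in either direction in limma with the block. Their log2 differences ran from -0.88 to 0.79, with a median of 0.07, and 12 were above 0. In experiments 1, 2 and 3, Mrc1 had 0.01, 1.70 and 0.67, and Fcer1g had -0.13, 0.43 and 1.01. Aif1 had -0.62, -1.52 and -0.51. These 3 markers were named with their values known. Cd14 had log2 differences of 0.35, 0.35 and 0.98 in experiments 1, 2 and 3. Limma with the block did not call it (adjusted p = 0.0794), while DESeq2 with the block called it higher (0.0177). Per 1000 normalized counts of the summed markers, of which Lyz2 gave the most, there were 40.8, 5.99 and 9.65 of Cybb in TWEAK libraries 1, 2 and 3, against 42.9, 3.14 and 4.98 in vehicle libraries 1, 2 and 3. On the log2 scale this ratio differed by 0.60 between treatments (exact permutation test, two-sided, p = 0.6, the smallest possible being 0.1; exact sign flips within experiments, p = 0.5, the smallest possible being 0.25), with -0.07, 0.93 and 0.95 in experiments 1, 2 and 3. Divided by the markers' geometric mean instead, it was 0.57.

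**Figure D2:**
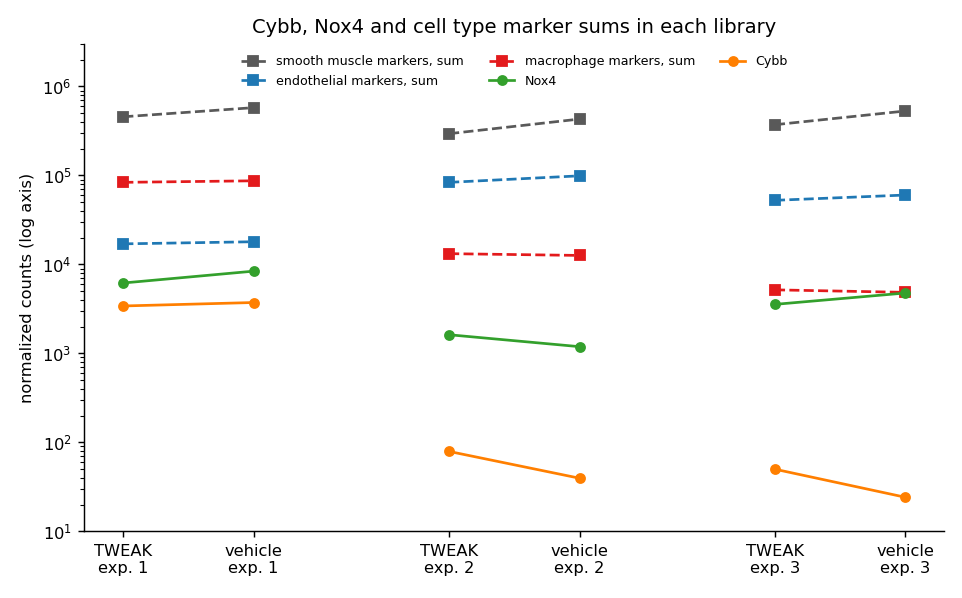
Cybb, Nox4 and the summed markers of 3 cell types in each library, in normalized counts on a log axis, with each experiment's TWEAK library left of its vehicle library. Cybb and the macrophage sum are highest in experiment 1, and Nox4 is lowest in experiment 2, where the endothelial sum is highest.

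Other oxidase subunits of phagocytes, named with their values known, also followed the experiments. Ncf1, which encodes p47phox, had 924, 128 and 36.7 normalized counts in TWEAK libraries 1, 2 and 3, against 904, 114 and 43.8 in vehicle libraries 1, 2 and 3. Rac2, the Rac GTPase of blood cells, had 534, 115 and 84.4 in TWEAK libraries and 572, 83.9 and 72.6 in vehicle libraries. Of 18 listed oxidase units, subunits and regulators, 13 were measured and none was called, where 13.7% of all genes were. Their median log2 difference was -0.02. The highest in mean normalized count, not scaled to length, were Sh3pxd2a, the scaffold Tks5, at -0.06 (limma adjusted p = 0.539), and Rac1, the widely expressed Rac GTPase, at -0.08 (0.420).

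Of the dismutases, Sod3 was the gene called. Sod3, the extracellular enzyme of the artery wall, had 9367, 15202 and 14421 normalized counts in TWEAK libraries 1, 2 and 3, against 7894, 12863 and 10618 in vehicle libraries 1, 2 and 3. In each experiment the TWEAK library was the higher of the pair, while experiment 1 was lowest in both groups and the groups overlapped. Means were 12997 ± 3167 with TWEAK and 10458 ± 2488 with vehicle (SD, n = 3). Sod3 rose 1.24-fold, a mean log2 difference of 0.31, with 0.25, 0.24 and 0.44 in experiments 1, 2 and 3 (SE 0.07, 95% interval 0.13 to 0.49, limma adjusted p = 0.0475 with the block and 0.902 without it). In the authors' deposited table its log2 fold change is 0.31 with an adjusted p of 0.0259, and Sod3 is the 1 gene of the 9 under 0.05, where 18.1% of all genes are, 10.8% higher. The call was close to the threshold. It was missed with edgeR and the block (adjusted p = 0.0509). In limma with 2 pairs it was missed without experiment 1 (0.132) and without experiment 3 (0.331), where the log2 difference was 0.34 and 0.24. Limma made the call without experiment 2 (adjusted p = 0.000423, log2 difference 0.34). Over all genes, these fits called 695 without experiment 1, 3902 without experiment 2 and 666 without experiment 3.

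Sod1, the cytosolic copper and zinc enzyme, had 8259, 11535 and 9825 normalized counts in TWEAK libraries 1, 2 and 3, against 8679, 12849 and 10307 in vehicle libraries 1, 2 and 3. Each TWEAK library was slightly below its vehicle partner. The log2 difference of -0.10 did not pass (95% interval -0.26 to 0.06, limma adjusted p = 0.351), nor did the -0.15 after correction for GC content and length (0.137). In the GENCODE M21 annotation the genes Scaf4 and Gm20388 overlap Sod1 and Cyba on the opposite strand, and since no source used here gives the use of strand in counting, their reads cannot be told apart.

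Sod2, the mitochondrial manganese enzyme, had 5280, 6958 and 6549 normalized counts in TWEAK libraries 1, 2 and 3, against 6001, 6660 and 5555 in vehicle libraries 1, 2 and 3. Its direction differed among the experiments, with log2 differences of -0.18, 0.06 and 0.24. The mean was 0.04 (95% interval -0.21 to 0.29, limma adjusted p = 0.816), and it turned to -0.09 after correction for GC content and length (0.531) and to -0.06 without experiment 3; it was 0.0081 with upper quartile scaling. Of the dismutases' transcripts, counted per kilobase of transcript, Sod3 made up 15.4%, 17.5% and 19.0% in TWEAK libraries 1, 2 and 3, against 12.7%, 14.0% and 14.3% in vehicle libraries 1, 2 and 3. Sod1 held most of the rest, 75.5% to 79.1% in TWEAK libraries and 80.9% to 81.4% in vehicle libraries. These shares rest on the length used. Per kilobase of coding sequence Sod1 stood less far above the others, with vehicle means of 22969 for Sod1, 13889 for Sod3 and 9117 for Sod2.

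Of 7 listed genes of the dismutases and their copper supply, all measured, 1 rose (Sod3) and 6 did not pass. That is 14.3% called, where 13.7% of all genes were, and the median log2 difference was 0.10. Atox1, the copper chaperone that serves the secretory pathway, had a log2 difference of 0.10 (limma adjusted p = 0.387), and 0.23 after correction for GC content and length (0.0552). Atp7a, the pump that loads copper into secreted enzymes such as Sod3, was at 0.33, with 0.05, 0.63 and 0.32 in experiments 1, 2 and 3, and did not pass (0.141).

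**Figure D3:**
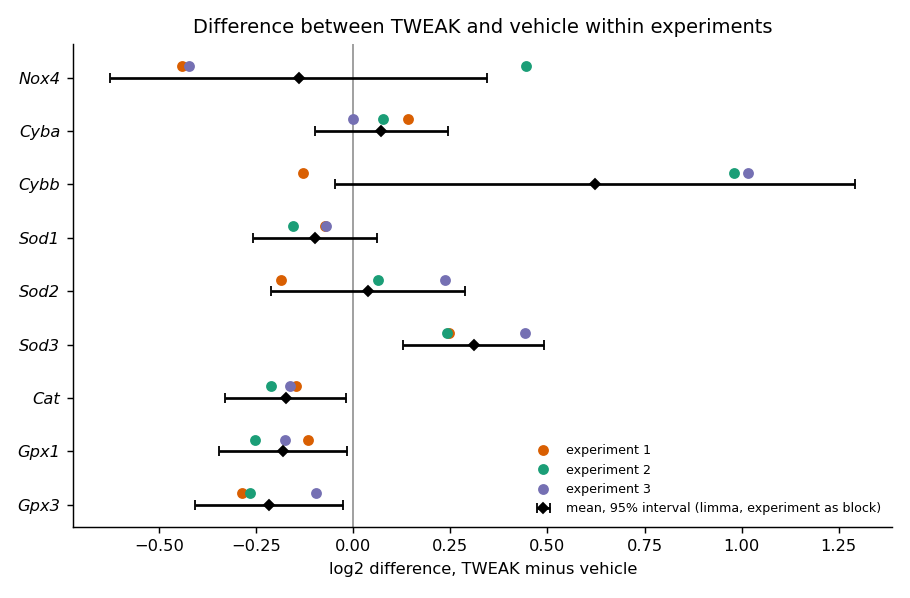
Log2 difference between TWEAK and vehicle for the 9 genes, with a coloured point for each experiment and a black diamond with a 95% interval for the mean in limma with the experiment as a block. The 3 points of Sod3 lie between 0.24 and 0.44, those of Cat, Gpx1 and Gpx3 between -0.29 and -0.10, and those of Nox4, Cybb and Sod2 on both sides of 0.

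The 3 peroxide-removing enzymes were each lower with TWEAK in every experiment by small amounts that did not pass. Cat had 11929, 9975 and 10089 normalized counts in TWEAK libraries 1, 2 and 3, against 13212, 11548 and 11302 in vehicle libraries 1, 2 and 3. The 3 pairs were nearly parallel, and the mean log2 difference was -0.17 (95% interval -0.33 to -0.02, limma adjusted p = 0.129; unadjusted 0.0336).

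Gpx1, the abundant cellular selenoenzyme, had 9113, 11286 and 9309 normalized counts in TWEAK libraries 1, 2 and 3, against 9880, 13436 and 10522 in vehicle libraries 1, 2 and 3. Experiment 2 was highest in both groups. Its mean log2 difference was -0.18 (95% interval -0.35 to -0.02, limma adjusted p = 0.134; unadjusted 0.0359).

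Gpx3, the secreted plasma form, had 2189, 2694 and 2245 normalized counts in TWEAK libraries 1, 2 and 3, against 2668, 3238 and 2400 in vehicle libraries 1, 2 and 3. The smallest gap was that of experiment 3, with a log2 difference of -0.10. The mean was -0.22 (95% interval -0.41 to -0.03, limma adjusted p = 0.128; unadjusted 0.0328). After correction for GC content and length the differences shrank to -0.052 for Gpx1 (limma adjusted p = 0.629) and -0.093 for Gpx3 (0.456), while Cat was at -0.17 (0.0891). With Sod1, 4 of the 9 genes were lower with TWEAK in all 3 experiments, as were 27.0% of all genes tested, and 1 of the 9 was higher in all 3, as were 28.2% of all genes (same direction in all 3 for 5 of the 9 and for 55.2% of all genes).

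Of 9 listed genes of catalase and the glutathione peroxidases, 6 were measured and none was called, where 13.7% of all genes were. Their median log2 difference was -0.17. Gpx4, which reduces lipid peroxides in membranes, had the highest mean normalized count of them, not scaled to length, with 20348 ± 3674 normalized counts with TWEAK and 20276 ± 4046 with vehicle (SD, n = 3; log2 difference 0.01, 95% interval -0.14 to 0.16; 0.12 after correction for GC content and length). Gpx8, an enzyme of the endoplasmic reticulum, was at -0.06 (limma adjusted p = 0.688), and -0.12 after that correction (0.259).

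Among neighbouring enzymes, Xdh, the xanthine oxidoreductase that can also make superoxide, had the largest called difference. It had 2999, 10640 and 8410 normalized counts in TWEAK libraries 1, 2 and 3, against 2044, 7949 and 5535 in vehicle libraries 1, 2 and 3. Xdh was higher with TWEAK within each experiment and lowest in experiment 1 under both treatments. It rose by 0.53 on the log2 scale (SE 0.07, limma adjusted p = 0.0109 with the block and 0.999 without it), with 0.55, 0.42 and 0.60 in experiments 1, 2 and 3. It was the 1 gene called of 4 measured (25.0%, against 13.7% of all genes) from a list of 6 other sources of superoxide or nitric oxide. The median log2 difference over the 4 was -0.05. Aox1, an aldehyde oxidase of the same list, named with its values known, had 1796, 1518 and 2335 normalized counts in TWEAK libraries 1, 2 and 3, against 2295, 2766 and 2836 in vehicle libraries 1, 2 and 3. It was lower with TWEAK in each experiment by a mean log2 difference of -0.50, which limma with the block did not call (adjusted p = 0.0678) and DESeq2 with the block did (0.00797). In the authors' deposited table the adjusted p of Aox1 is 0.00693.

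Of 17 measured peroxiredoxins, thioredoxins and glutaredoxins, 1 rose, 1 fell and 15 did not pass, with a median log2 difference of 0.00. That is 11.8% called, where 13.7% of all genes were. Among the 15 was Prdx5, named with its values known, at -0.17, -0.40 and -0.28 in experiments 1, 2 and 3. Limma with the block did not call it (adjusted p = 0.0591), while DESeq2 with the block called it lower (0.0439). In the authors' deposited table the adjusted p of Prdx5 is 0.0479. Txnrd1, the cytosolic thioredoxin reductase, rose to 19070 ± 3273 normalized counts with TWEAK, against 15575 ± 3081 with vehicle (SD, n = 3; log2 difference 0.30, limma adjusted p = 0.0313). Txnrd3, the thioredoxin and glutathione reductase best known from testis, fell to 971 ± 99.8 with TWEAK, against 1278 ± 124 with vehicle (log2 difference -0.40, limma adjusted p = 0.0401), and its groups did not overlap. Of 9 measured genes of selenocysteine supply, 1 rose, which is 11.1% called, where 13.7% of all genes were. Scly, the lyase that recovers selenium from selenocysteine, averaged 1717 ± 257 with TWEAK and 1291 ± 158 with vehicle (log2 difference 0.41, limma adjusted p = 0.0245). Without the block, none of the called neighbours Xdh, Txnrd1, Txnrd3 and Scly passed. Nor did any of them in 2 pairs without experiment 1 (limma adjusted p from 0.0714 to 0.130) or without experiment 3 (0.108 to 0.227). Each of them was called without experiment 2, in a fit that called 3902 genes, against 695 without experiment 1 and 666 without experiment 3.

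**Figure D4:**
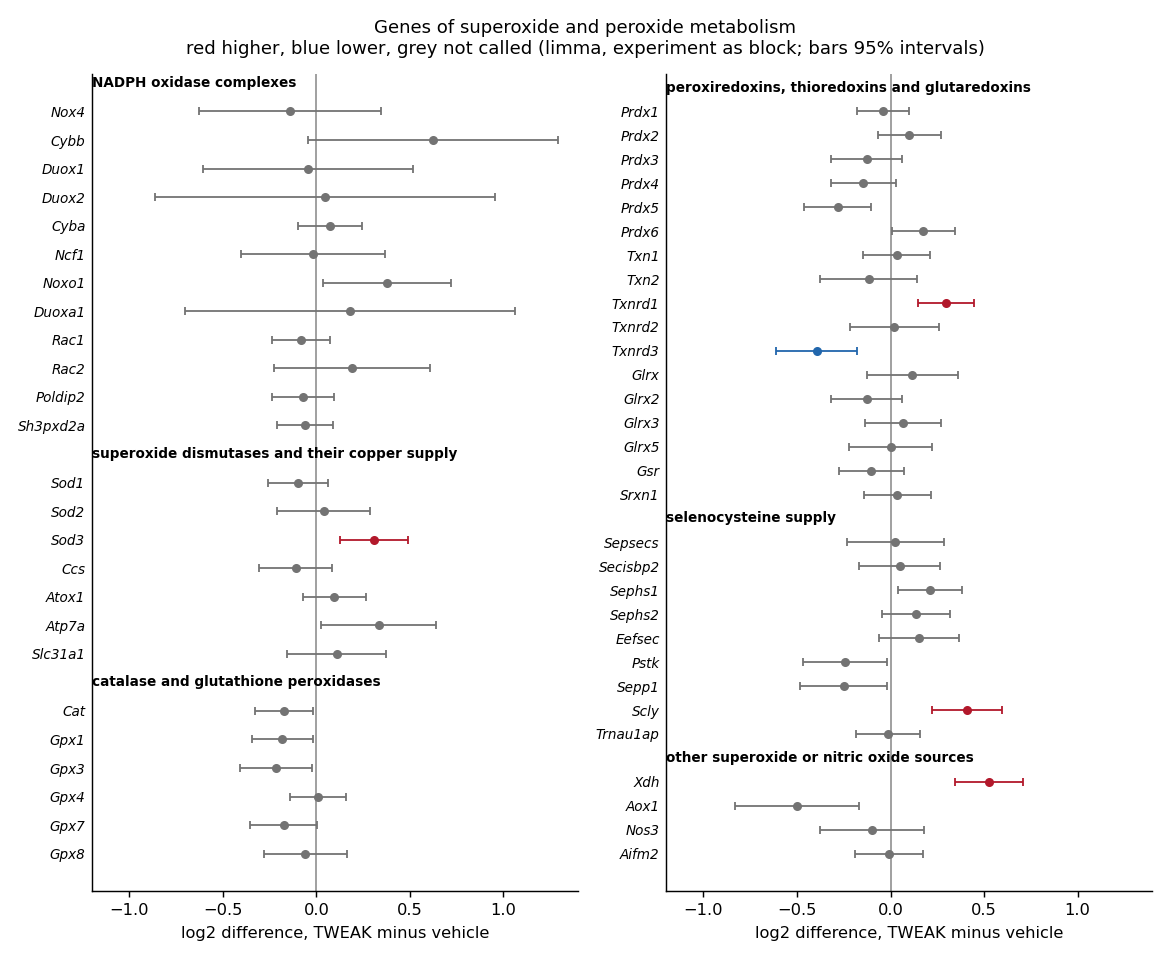
Log2 difference between TWEAK and vehicle, with 95% intervals from limma with the experiment as a block, for genes of 6 lists of superoxide and peroxide metabolism. Red marks the genes called higher (Sod3, Txnrd1, Scly and Xdh), blue the one called lower (Txnrd3) and grey those not called.

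The experiments differed in most of the 9 genes. In a limma F test over the 3 experiments with treatment in the model, 7 of the 9 differed at an adjusted p under 0.05, as did 48.6% of all genes. The spread was widest for Cybb, whose highest library was 154 times its lowest, and for Nox4, at 7.06 times. Neither Sod2 (adjusted p = 0.214) nor Cat (0.0713) passed this test. Without experiment 1, 1 of the 9 passed and 18.5% of all genes did. Without experiment 2, 5 of the 9 and 30.4% of all genes passed, and without experiment 3, 6 of the 9 and 40.6% of all genes.

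Levels of different genes were compared per kilobase of the principal transcript of GENCODE M21. Sod1 was the most abundant, at 15402 ± 2556 normalized counts per kilobase with TWEAK and 16555 ± 3278 with vehicle (SD, n = 3). Gpx1 and Cyba came next, with overlapping ranges, at 9238 ± 1121 and 10604 ± 1470 with TWEAK and 10522 ± 1768 and 10098 ± 1498 with vehicle. Within libraries Cyba was above Gpx1 in TWEAK libraries 1, 2 and 3 and vehicle library 3. It was below Gpx1 in vehicle libraries 1 and 2, a contrast that was not tested. Cat stood at 4081 ± 420 with TWEAK and 4600 ± 398 with vehicle, and Sod3 at 3477 ± 847 with TWEAK and 2798 ± 666 with vehicle, so these neighbours overlapped in the TWEAK libraries and not in the vehicle libraries. Gpx3, at 1491 ± 174 with TWEAK and 1737 ± 269 with vehicle, Nox4, at 1010 ± 611 with TWEAK and 1276 ± 961 with vehicle, and Sod2, at 1069 ± 149 with TWEAK and 1036 ± 94.8 with vehicle, followed. Cybb was lowest, at 249 ± 407 with TWEAK and 266 ± 450 with vehicle. The Nox4 libraries spanned those of Sod2 and overlapped those of Gpx3, while the highest Cybb library (786, vehicle 1) lay below the lowest Sod2 library (901, TWEAK 1). Per kilobase Nox4 exceeded Cybb by 2.30, 25.9 and 90.2 times in TWEAK libraries 1, 2 and 3, against 2.85, 38.1 and 249.8 times in vehicle libraries 1, 2 and 3. The order rests on the length used: the annotated Sod2 transcript is 5861 bases long with 666 coding bases, and per kilobase of coding sequence Sod2 moved to rank 5 of the 9 in vehicle libraries and Sod3 to rank 3.

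**Figure D5:**
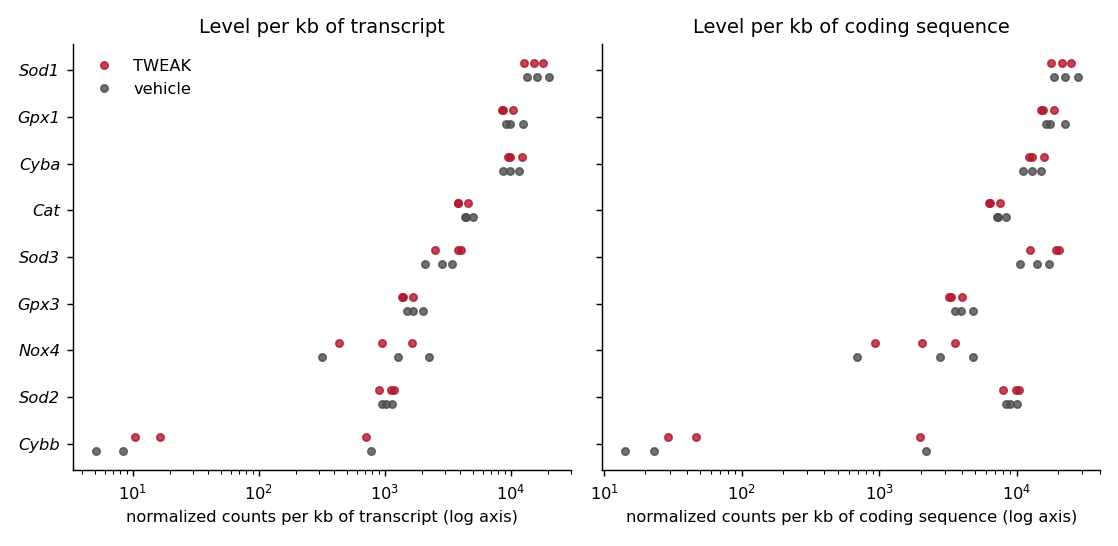
Level of each of the 9 genes in normalized counts per kilobase of principal transcript (left) and of coding sequence (right), on log axes, with 3 TWEAK libraries above 3 vehicle libraries for each gene. Sod1 is highest and Cybb lowest on average on both scales, and Sod2 and Sod3 move up when coding length is used.

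The genes whose log2 values over the 6 libraries were most like those of Sod3 were Adamts9, a matrix protease gene (Pearson r = 0.994), Rtn4rl2, which encodes a Nogo receptor homologue (0.994), and Mmp3, which encodes stromelysin (0.994). The 6 libraries share 3 experiments and 1 treatment contrast, and the log2 differences of these 3 genes were 0.41, 2.13 and 2.63, larger than that of Sod3.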

How the data were processed

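Total RNA of 6 libraries was sequenced with a stranded Illumina kit, per the series' design text. Control libraries are titled WT and their columns basal; they were taken as the vehicle group, the other titles being TWEAK. The authors deposited 1 table made with DESeq2, per the submitters' processing notes, with no version named; aligner, counting, strand use, genome build and annotation were not given in the sources used here. Per the file headers it holds the authors' mean normalized count, log2 fold change and its SE, Wald statistic (a score), p-value and adjusted p-value, and a column of normalized counts per library. These columns, deposited as a signal scaled by 1 size factor per library, hold steps of 1 read, so that 100% of values gave whole reads (tolerance 0.01), and these counts were recovered.

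Values were tested as log2(normalized count + 1) with limma 3.58.1 in R 4.3.3 (trend, robust, two-sided, Benjamini-Hochberg over 14927 genes). The design was unpaired, with the experiment number as a block as an alternative. The numbers were taken to pair the libraries because of their deviations from the group mean across genes. These correlated at 0.879, 0.868 and 0.734 for libraries of the same experiment (the headers' experiment number being that of the sample title). For others the correlation lay between -0.760 and -0.126. Deviations within a group cancel out, so positive values for matched libraries make the others negative in part by construction. Genes are not independent replicates. Alternatives used edgeR 4.0.16, DESeq2 1.42.0, limma-voom, other scalings, filters and pseudocounts, and a GC and length correction for the 99.1% of genes matched to GENCODE M21. The test was tried on simulated data. No 2 libraries were duplicates (lowest chi-square per degree of freedom 90.7). Fold changes follow the authors' scaling, so a change in total RNA per cell is not seen.

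In the oxidase list 1 measured gene is counted but not reported here. The 9 genes and all lists were chosen with earlier results of these data known. Named were the 9 genes, up to 4 called genes of each pathway list by adjusted p in the blocked fit (in a list with no such gene, the 2 highest in mean count), the 3 genes most correlated with each called member, and defining markers. Promoter windows and motif shares came from RefSeq, build GRCm38.p6.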

Additional observations from a re-analysis of the deposited data

How the results depend on the processing

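The experiment block changed most calls. limma called 3 genes without it and 2039 with it, and 0 and 1 of the 9 members. With the block, all genes called numbered 2033 and 2081 with pseudocounts of 0.5 and 8, 1943 at a mean of at least 100, 2039 with no filter, 1778 with TMM, 2983 with upper quartile scaling, 2503 with cyclic loess, 3525 with the GC and length correction, 1865 with limma-voom, 1744 with edgeR and 2710 with DESeq2; 1 member was called in each of these except edgeR, with 0. Without the block DESeq2 called 752 genes and edgeR 2, with 0 members each. Leaving out experiments 1, 2 and 3 with the block gave 695, 3902 and 666 genes and 0, 2 and 0 members, and leaving out a library without it gave 0 to 2 genes and 0 members. Over experiments, 7 members differed, and 1 to 6 did with an experiment left out.

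Signs turned for Cybb with edgeR (-0.095) and DESeq2 (-0.10) without the block, Sod2 (-0.093) and Sh3pxd2a (0.0039) with the GC and length correction, Sh3pxd2a with cyclic loess (0.026) and Gpx4 with upper quartile scaling (-0.022); the cause was not tested. With an experiment left out of the blocked fit, log2 differences ranged from -0.43 to 0.011 for Nox4 (0.0013 without experiment 3), -0.061 to 0.15 for Sod2, -0.021 to 0.030 for Gpx4 and -0.15 to 0.029 for Gpx8. With a library left out and no block, they ranged from -0.94 to 0.47 for Nox4, -0.038 to 0.18 for Cyba, -1.29 to 2.91 for Cybb, -0.23 to 0.049 for Sod1, -0.042 to 0.16 for Sod2, -0.15 to 0.67 for Atp7a, -0.13 to 0.16 for Gpx4, -0.17 to 0.0030 for Gpx8 and -0.040 to 1.078 for Xdh. Sod3 kept its direction in every setting run. The alternatives for the test over experiments and for pathway genes outside the 9, and the sign flips for Cybb, were chosen after seeing the data. At 21 to 88 reads per library the level of Cybb in experiments 2 and 3 is imprecise.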
